A study of Mus musculus with 9 samples.

Results

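BMP signalling was examined through 9 genes of the mouse auditory nerve, which are the ligand genes Bmp2, Bmp4, Bmp6 and Bmp7, the antagonist genes Grem1, Chrd and Nog, and the target genes Id1 and Id3. They were chosen by name, as all probe sets of the array that named exactly 1 gene of this set, which gave 11 probe sets for 9 of the 18193 genes measured. RNA had been hybridised to Affymetrix mouse expression arrays from 3 neurosphere samples, 3 samples of cultured auditory nerve cells and 3 samples of auditory nerve tissue. All samples came from CBA/CaJ mice between 8 and 12 weeks of age, and both sexes were used. Neurospheres, free clusters of cells, formed when confluent cultures received serum-free medium with EGF at 20 ng/ml, FGF at 10 ng/ml and heparin at 2 µg/ml for 12 days. The cultured cells were nerve cells freed with trypsin and grown in medium with 10% fetal bovine serum and B27 until confluent at 5 to 7 days. The nerve tissue was dissected from the temporal bone and not cultured. Whether the samples of a group were taken from different animals or grown as separate cultures is not stated in the labels, and p-values then reflect no more than the spread of these samples, which may be technical.

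Bone morphogenetic proteins (BMPs) are secreted ligands of the TGF-beta superfamily. They bind pairs of type I and type II serine/threonine kinase receptors, which activate the transcription factors Smad1, Smad5 and Smad9. Gremlin, chordin and noggin, the products of Grem1, Chrd and Nog, bind the ligands outside the cell and keep them from the receptors. Id1 and Id3 are direct transcriptional targets in many cell types and encode helix-loop-helix proteins that block basic helix-loop-helix factors. In the developing inner ear and in neural crest derivatives BMPs take part in patterning and in the choice between neuronal and glial fates.

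Markers of other cell types and signs of RNA quality moved with the groups, and their part in the results below was not tested. In neurospheres against tissue, 6 of 6 Schwann and glial markers and 7 of 8 neuronal markers fell, while 7 of 8 fibroblast and matrix markers and 7 of 7 cell cycle genes rose. In cultured cells against tissue, these counts were 6 of 6, 8 of 8, 7 of 8 and 7 of 7. Cochlear epithelium and lateral wall markers (5 of 6), endothelial markers (5 of 6) and macrophage markers (4 of 6) fell in neurospheres against tissue too, as did 5, 4 and 4 of 6 in cultured cells against tissue. The cochlear list mean was 5.74 to 5.86 (log2) in neurospheres, 6.01 to 6.14 in cultured cells and 9.57 to 9.76 in tissue, and its marker Otos had the largest change of all genes in both comparisons with tissue (log2 fold changes -9.72 and -9.54). The mean level of the glial list was 7.65 to 8.19 (log2) in neurospheres, 7.84 to 8.22 in cultured cells and 12.15 to 12.21 in tissue. That of the fibroblast list was 12.41 to 12.54, 12.78 to 12.99 and 10.62 to 10.83 in the same order. Between neurospheres and cultured cells, 4 of 6 smooth muscle markers and 4 of 7 cartilage and bone markers were lower in neurospheres (list means 7.01 to 7.50 against 9.01 to 9.26, and 8.13 to 8.57 against 9.74 to 10.21), as were 7 of 7 cell cycle genes (9.53 to 9.98 against 11.16 to 11.30). As a sign of RNA quality, the 3′ signal of actin exceeded its 5′ signal by 0.54 to 0.83 (log2) in neurospheres, 0.33 to 0.40 in cultured cells and 2.38 to 3.07 in tissue. Xist, expressed in females, was at 5.85 to 12.8 in neurospheres, 12.69 to 12.8 in cultured cells and 6.25 to 12.04 in tissue. In such bulk samples, fewer cells of a type and less RNA per cell cannot be told apart.

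The 9 genes did not move as a block. Of the ligands, Bmp2 was highest in neurospheres, Bmp4 in cultured cells, and Bmp6 and Bmp7 in tissue. Grem1 and Id1 rose in both kinds of culture, Id3 rose in cultured cells, and Chrd and Nog did not reach the full threshold in any comparison. The threshold was a fold change over 1.5 together with an adjusted p under 0.05 (limma, Benjamini-Hochberg over the 18193 genes). In neurospheres against tissue, 3 of the 9 genes rose and 3 fell, where 21.7% of all genes rose and 21.0% fell. In cultured cells against tissue, 4 rose and 3 fell, where 20.4% of all genes rose and 22.0% fell. In neurospheres against cultured cells, 1 rose and 3 fell, where 9.0% of all genes rose and 8.91% fell. The median size of the change, whatever its sign, was 1.57, 1.46 and 0.78 (log2) over the 9 genes in these comparisons, against 0.45, 0.45 and 0.20 over all genes. This contrast was not tested, and the medians over all genes include the dimmest genes. The 9 genes were also chosen with earlier results of these data known, so these medians only describe them. The comparisons share arrays and are not independent of each other.

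**Figure D1:**
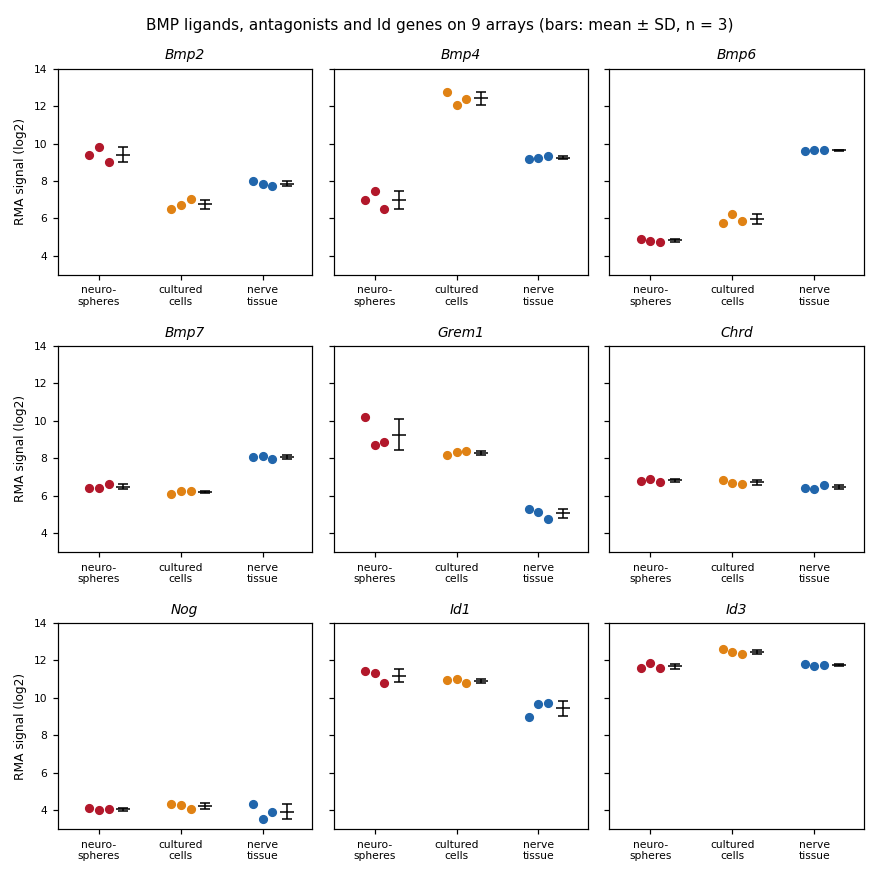
RMA signal (y axis, log2) of the 9 genes on the 3 arrays of neurospheres, cultured cells and nerve tissue, each array drawn as a point beside the mean ± SD of its group (n = 3). Bmp4 averaged 6.99 in neurospheres, 12.4 in cultured cells and 9.23 in tissue, while Bmp2 averaged 9.40, 6.75 and 7.86.

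Bmp4, a ligand that ventralises the early embryo and acts in otic development, was at 7.00, 7.46 and 6.51 (log2) in neurospheres, 12.76, 12.05 and 12.40 in cultured cells, and 9.17, 9.21 and 9.33 in tissue. The 3 groups did not overlap, with cultured cells highest and neurospheres lowest. Cultured cells exceeded tissue by a log2 fold change of 3.17 (SE 0.16, adjusted p = 8.55e-08), a 9.0-fold rise. In neurospheres against tissue it fell by 2.24 on the log2 scale (SE 0.21, adjusted p = 1.66e-05). In neurospheres against cultured cells the log2 fold change was -5.41 (SE 0.25, adjusted p = 2.65e-06), which is 42.6-fold lower. Only 12 of the 18193 genes had a larger change in that comparison.

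Bmp2, the closest relative of Bmp4 among the BMP ligands, ran the other way. It was at 9.37, 9.82 and 9.01 (log2) in neurospheres, 6.53, 6.70 and 7.03 in cultured cells, and 8.02, 7.82 and 7.75 in tissue. All neurosphere arrays lay above all tissue arrays, and all cultured cell arrays lay below them. The log2 fold change was 1.54 in neurospheres against tissue (SE 0.19, adjusted p = 0.000102) and -1.11 in cultured cells against tissue (SE 0.13, adjusted p = 5.18e-05). Neurospheres exceeded cultured cells by 2.65 (SE 0.21, adjusted p = 3.51e-05), a 6.27-fold difference that 1.24% of all genes surpassed in size.

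The promoter of Bmp4 is shown because this gene had the largest difference between groups among the 9. Sequences are from RefSeq (GRCm38.p6) and cover the 250 bases before the annotated start of the gene. Capitals mark matches, on either strand, to GGCGCC and GGAGCC (motifs of BMP response elements), CAGAC (a Smad binding element) and GGGCGG (the GC box). Such motifs occur in 9.59%, 26.0%, 42.2% and 32.7% of the 32851 windows of this length in the table, so a match describes the window and is not a binding site. The Bmp4 window, chr14:46390670-46390919 on the minus strand, held 1 GGAGCC on the opposite strand (bases 32 to 27 before the start) directly after 1 GGGCGG (bases 38 to 33).
Bmp4: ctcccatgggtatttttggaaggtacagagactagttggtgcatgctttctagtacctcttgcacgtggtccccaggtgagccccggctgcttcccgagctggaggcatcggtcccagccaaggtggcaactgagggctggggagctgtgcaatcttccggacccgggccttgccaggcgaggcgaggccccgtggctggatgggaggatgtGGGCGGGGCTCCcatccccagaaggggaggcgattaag

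Bmp6 and Bmp7, ligands of a second BMP subgroup, were both highest in tissue. Bmp6 was at 4.91, 4.80 and 4.76 (log2) in neurospheres, 5.74, 6.26 and 5.88 in cultured cells, and 9.60, 9.63 and 9.65 in tissue. The groups were well apart, and each step in that order passed. The log2 fold change was -4.80 in neurospheres against tissue (SE 0.084, adjusted p = 1.32e-09), a 27.9-fold fall, and -3.67 in cultured cells against tissue (SE 0.13, adjusted p = 6.96e-09). Neurospheres were also 2.20-fold below cultured cells (log2 fold change -1.14, SE 0.13, adjusted p = 0.000333). For scale, 3 Y-linked genes were at 2.56 to 3.53 (log2) in cultured cells, whose arrays all had a high Xist signal. Background can differ between probe sets, and whether Bmp6 exceeded its own background in the cultures was not tested. The size of its fold changes is therefore uncertain. The promoter of Bmp6 held 1 CAGAC and 1 GGGCGG.

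Bmp7 was measured by 3 probe sets, of which the one with the highest mean (1435479_at) stood for the gene. That probe set was at 6.39, 6.42 and 6.61 (log2) in neurospheres, 6.10, 6.24 and 6.24 in cultured cells, and 8.08, 8.14 and 7.93 in tissue. Tissue was clear of both cultures, which lay close to each other. The log2 fold change was -1.57 in neurospheres against tissue (SE 0.10, adjusted p = 1.47e-06) and -1.86 in cultured cells against tissue (SE 0.091, adjusted p = 7.21e-08). In neurospheres against cultured cells it was 0.28 (95% interval 0.07 to 0.49), under the fold threshold. The probe set 1418910_at averaged 4.35, 4.71 and 6.72 in neurospheres, cultured cells and tissue, with log2 fold changes of -2.37 and -2.01 against tissue. For 1432410_a_at the means were 4.04, 3.98 and 4.56, and the log2 fold changes against tissue were -0.52 and -0.58, under the fold threshold. The 3 probe sets thus placed tissue highest, and they differed in the order of neurospheres and cultured cells.

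**Figure D2:**
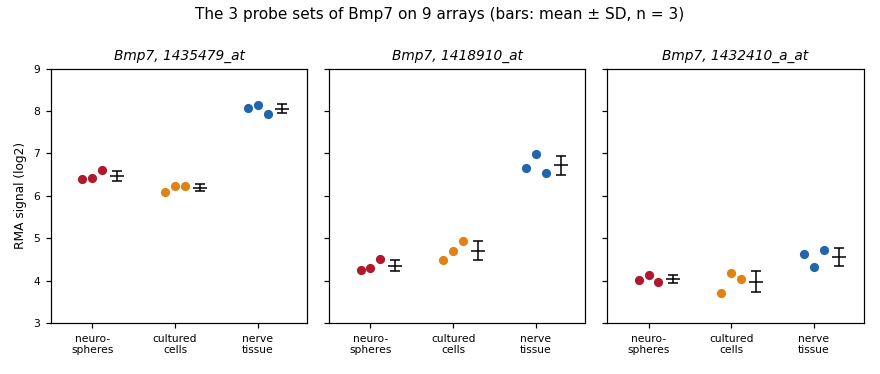
RMA signal (y axis, log2) of the 3 probe sets of Bmp7 on the 3 arrays of each group, each array drawn as a point beside the mean ± SD of its group (n = 3). In 1435479_at neurospheres averaged 6.47 against 8.05 in tissue, while in 1432410_a_at the means were 4.04 in neurospheres and 4.56 in tissue.

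Among the antagonists, Grem1 alone passed. It encodes gremlin 1, which binds BMP2, BMP4 and BMP7. It was at 10.21, 8.69 and 8.87 (log2) in neurospheres, 8.16, 8.34 and 8.38 in cultured cells, and 5.28, 5.11 and 4.76 in tissue. Every culture array lay above every tissue array. The log2 fold change was 4.21 in neurospheres against tissue (SE 0.36, adjusted p = 9.55e-06), which is 18.5-fold, and 3.24 in cultured cells against tissue (SE 0.13, adjusted p = 2.05e-08), which is 9.46-fold. Whether the tissue signal of Grem1 exceeded background was not tested, so the size of both fold changes is uncertain. Neurosphere array 1 stood apart above the other neurosphere arrays. The single probe set of Grem1 is marked on the array as shared between transcripts, as is that of Id1. In neurospheres against cultured cells the log2 fold change was 0.97 (95% interval 0.16 to 1.77, adjusted p = 0.065) and did not pass. Without neurosphere replicate 1 it was 0.49, and without neurosphere replicate 2 it was 1.25 and passed (adjusted p = 0.0267, with 0.0096 to 0.231 over all alternatives).

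The promoter of Grem1, chr2:113758649-113758898 on the minus strand, is shown as that of the antagonist that rose. It held 1 GGCGCC at bases 78 to 73 before the start, 1 CAGAC at bases 219 to 215 and 3 GGGCGG, with none overlapping another.
Grem1: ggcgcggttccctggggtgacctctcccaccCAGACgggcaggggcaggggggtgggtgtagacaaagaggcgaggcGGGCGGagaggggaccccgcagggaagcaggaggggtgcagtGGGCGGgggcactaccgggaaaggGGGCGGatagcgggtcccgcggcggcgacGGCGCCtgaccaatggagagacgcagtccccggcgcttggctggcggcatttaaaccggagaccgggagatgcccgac

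Chrd and Nog varied little. Chrd, for chordin, was at 6.79, 6.90 and 6.73 (log2) in neurospheres, 6.85, 6.66 and 6.61 in cultured cells, and 6.43, 6.36 and 6.56 in tissue. Both cultures were slightly above tissue, by 0.36 in neurospheres (95% interval 0.14 to 0.57, adjusted p = 0.00881) and 0.26 in cultured cells (0.04 to 0.48, adjusted p = 0.0426), under the fold threshold. Nog, for noggin, was at 4.15, 4.0 and 4.05 in neurospheres, 4.36, 4.29 and 4.07 in cultured cells, and 4.34, 3.54 and 3.91 in tissue. The groups overlapped, and the mean of Nog over the 9 arrays was at percentile 11.5 of all genes. The 95% interval of its log2 fold change was -0.28 to 0.55 in neurospheres against tissue, -0.10 to 0.72 in cultured cells against tissue, and -0.41 to 0.06 in neurospheres against cultured cells. The promoter of Chrd held 1 GGCGCC, 1 GGAGCC and 4 GGGCGG.

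Of the target genes, Id1 rose in both cultures and Id3 in cultured cells. Id1 was at 11.46, 11.34 and 10.78 (log2) in neurospheres, 10.93, 11.02 and 10.79 in cultured cells, and 8.98, 9.65 and 9.71 in tissue. Both cultures were above tissue and overlapped each other. The log2 fold change was 1.74 in neurospheres against tissue (SE 0.23, adjusted p = 0.000163) and 1.46 in cultured cells against tissue (SE 0.18, adjusted p = 5.28e-05). In neurospheres against cultured cells it was 0.28 (95% interval -0.11 to 0.67, adjusted p = 0.251).

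Id3 was at 11.57, 11.85 and 11.62 (log2) in neurospheres, 12.59, 12.46 and 12.34 in cultured cells, and 11.82, 11.72 and 11.75 in tissue. Cultured cells were above both other groups, which overlapped. Id3 rose 1.62-fold in cultured cells against tissue (log2 fold change 0.70, SE 0.090, adjusted p = 8.23e-05) and was 1.72-fold lower in neurospheres than in cultured cells (log2 fold change -0.78, SE 0.11, adjusted p = 0.000701). In neurospheres against tissue the log2 fold change was -0.09 (95% interval -0.31 to 0.14, adjusted p = 0.487).

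The promoter of Id3, chr4:136143572-136143821 on the plus strand, is shown as that of a target gene. It held 1 GGAGCC on the opposite strand (bases 187 to 182 before the start), 2 CAGAC (bases 167 to 163, and 68 to 64 on the opposite strand) and 2 GGGCGG that overlap each other (bases 94 to 85). It held no GGCGCC, which says only that these letters were not in this window.
Id3: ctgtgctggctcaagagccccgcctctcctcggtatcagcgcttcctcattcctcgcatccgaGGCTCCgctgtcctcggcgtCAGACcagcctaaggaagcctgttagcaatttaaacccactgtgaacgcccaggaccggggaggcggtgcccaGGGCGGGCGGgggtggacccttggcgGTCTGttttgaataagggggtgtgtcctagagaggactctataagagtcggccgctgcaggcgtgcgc

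**Figure D3:**
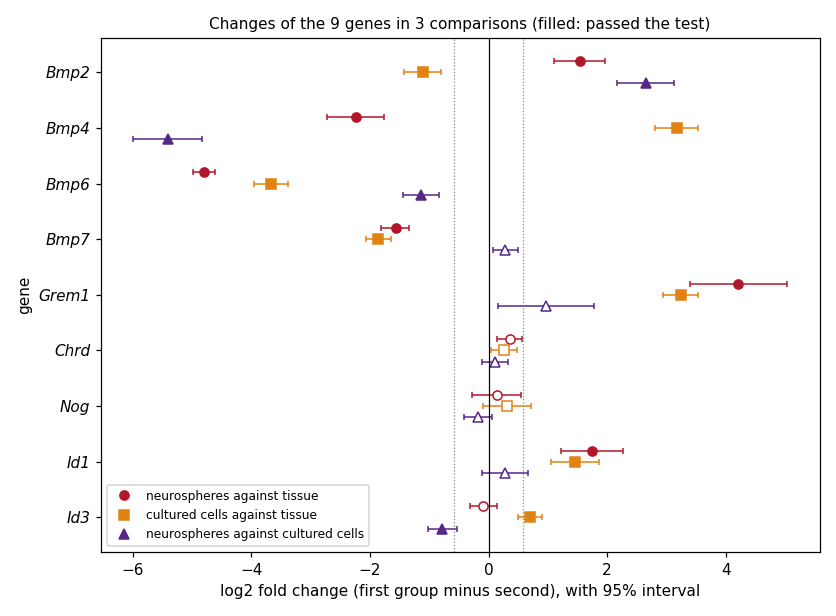
Log2 fold change (x axis) of the 9 genes (y axis) in the 3 comparisons between groups, with the 95% interval of the fit as bars, filled symbols for genes that passed, and dotted lines at the 1.5-fold threshold. Bmp2 and Bmp4 lay on opposite sides of 0 in each comparison, with Bmp2 at 2.65 and Bmp4 at -5.41 in neurospheres against cultured cells.

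The genes most like each changing gene were taken as those with the highest Pearson correlation over the 9 arrays, which fall into 3 groups, so that any gene with the same order and spacing of group means scores high. For Bmp4 they were Garre1 (r = 0.995), Esr1, the estrogen receptor alpha gene (r = 0.995), and C1qtnf1 (r = 0.992), and 113 genes had r over 0.95. Esr1 averaged 5.83 (log2) in neurospheres, 9.40 in cultured cells and 7.10 in tissue. A correlation takes no account of the size of a change, and Garre1 averaged 9.46, 9.85 and 9.61 in the same order. For Bmp2 they were Car11 (r = 0.990), Sox5, a transcription factor gene (r = 0.990), and Ccdc149 (r = 0.989), with 82 genes over 0.95. Id3 was followed by Scaf4, Ankrd50 and Plpbp (r = 0.988, 0.987 and 0.984, with 77 genes over 0.95). Grem1 was followed by Il6, an inflammatory cytokine gene (r = 0.997), Itprip (r = 0.997) and Nfkb2, an NF-kappaB subunit gene (r = 0.994), with 902 genes over 0.95. Il6 averaged 9.83 in neurospheres, 7.94 in cultured cells and 3.17 in tissue. Id1 was followed by Arpc4, Sap30bp and Serhl (r = 0.996, 0.992 and 0.991, with 636 genes over 0.95), Bmp6 by Rhpn2, Ndufb8 and Nap1l3 (r = 0.999, 0.998 and 0.998, with 1607), and Bmp7 by Lrrc49, Kif26a and Fundc1 (r = 0.998, 0.998 and 0.997, with 1999).

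The rest of the pathway was described through 56 further genes. In neurospheres against tissue 18 of them rose and 15 fell (median log2 fold change 0.15, against 0.05 over all genes). In cultured cells against tissue 21 rose and 10 fell (median 0.28, against -0.01), and in neurospheres against cultured cells 4 rose and 13 fell (median -0.06, against 0.05). These counts, and those of the groups below, stand against the shares of all genes given above, which were 21.7% higher and 21.0% lower in neurospheres against tissue, 20.4% and 22.0% in cultured cells against tissue, and 9.0% and 8.91% in neurospheres against cultured cells. Several group counts, such as 1 and 2 of 8 other ligand genes in neurospheres against tissue, lie near these shares.

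Of 8 other ligand genes, 1 rose and 2 fell in neurospheres against tissue, 1 rose in cultured cells against tissue, and 1 fell in neurospheres against cultured cells. Gdf10, for the ligand also called BMP3B, was at 7.36, 7.07 and 6.65 (log2) in neurospheres, 10.88, 10.96 and 10.94 in cultured cells, and 10.78, 10.98 and 11.10 in tissue. Neurospheres lay below the other groups, which overlapped, with log2 fold changes of -3.92 against tissue (SE 0.17, adjusted p = 1.53e-07) and -3.90 against cultured cells (SE 0.16, adjusted p = 1.76e-06). Bmp5, a relative of Bmp6 and Bmp7, rose by 0.82 in neurospheres and by 0.75 in cultured cells against tissue. Its other probe sets rose by 2.50 and 2.11 in neurospheres and by 2.35 and 1.88 in cultured cells, and the mean of the probe sets gave 1.81 and 1.66. Bmp8a fell by 0.92 in neurospheres against tissue.

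Of 12 receptor and co-receptor genes, 5 rose and 5 fell in neurospheres against tissue, 2 rose and 4 fell in cultured cells against tissue, and 1 rose in neurospheres against cultured cells. Acvr1, a type I receptor gene, was at 11.29, 11.54 and 11.32 (log2) in neurospheres, 10.74, 11.08 and 11.23 in cultured cells, and 9.83, 9.98 and 9.93 in tissue. It rose by 1.47 in neurospheres and by 1.10 in cultured cells. Bmpr1b, another type I receptor gene, fell by 2.11 in neurospheres and by 2.42 in cultured cells against tissue. Of the co-receptor genes, Rgma fell by 2.01 and by 2.03, while Rgmb rose by 1.53 in neurospheres against tissue and by 1.13 in neurospheres against cultured cells. Acvrl1 rose by 0.91 in neurospheres against tissue. Eng, for endoglin, rose by 0.83 in neurospheres and by 1.36 in cultured cells against tissue. Of the type II receptor genes, Acvr2a fell by 0.79 in neurospheres and by 0.85 in cultured cells against tissue. Acvr2b fell by 0.78 and by 0.92 in the same comparisons. Bmpr2 fell by 0.78 in neurospheres against tissue, where its other probe sets, at -0.24 and 0.07, did not pass. In cultured cells against tissue Bmpr2 was at -0.44 and did not pass, while its probe set 1419616_at rose by 0.59. Probe sets of a receptor gene could disagree, as these cases chosen after seeing the values show. In neurospheres against tissue, the brightest probe set of Bmpr1a rose by 0.60. Others of this gene rose by 2.09, 0.91, 0.71 and 0.91, while 1451729_at fell by 0.84. In cultured cells against tissue the brightest, at 0.48, did not pass. Others rose there by 2.29, 1.09, 0.92 and 1.05, while 1451729_at had a log2 fold change of -0.99. In neurospheres against tissue, other probe sets of Rgmb, Acvr2a and Bmpr1b had log2 fold changes of -0.36, 0.28 and 0.06 and did not pass. Further probe sets of Rgmb rose there by 0.76 and 0.61, or were at -0.26 and -0.02 and did not pass. In cultured cells against tissue the brightest probe set of Rgmb, at 0.41, did not pass. Others fell, with log2 fold changes of -2, -0.86 and -0.92, and those at -0.25 and -0.52 did not pass.

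Extracellular modulators held the largest changes of the 56 genes in both comparisons with tissue. Of 15 measured, 5 rose and 3 fell in neurospheres against tissue, 9 rose and 3 fell in cultured cells against tissue, and 1 rose and 3 fell in neurospheres against cultured cells. Chrdl1, for a chordin-like antagonist, was at 5.51, 5.69 and 5.47 (log2) in neurospheres, 4.91, 5.06 and 5.32 in cultured cells, and 9.78, 9.93 and 10.18 in tissue. It fell by 4.41 in neurospheres and by 4.87 in cultured cells against tissue, while another, dimmer probe set had log2 fold changes of -0.31 and -0.29. Sostdc1, for another antagonist, fell by 4.77 and 5.02 in the same comparisons, and Sost, for sclerostin, which mainly inhibits Wnt signalling, fell by 1.86 and 2.08. The other, dimmer probe set of Sost had log2 fold changes of 0.32 and 0.31 and did not pass, and the mean of its probe sets gave -0.77 and -0.89.

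Some other antagonist genes were higher in both cultures, and Crim1 was higher in cultured cells only. Fst, for follistatin, which binds activins and some BMPs, was at 11.33, 10.77 and 10.98 (log2) in neurospheres, 12.23, 12.42 and 12.61 in cultured cells, and 7.97, 8.09 and 8.55 in tissue. It rose by 2.82 in neurospheres against tissue and by 4.22 in cultured cells against tissue, and fell by 1.40 in neurospheres against cultured cells. Fstl1, a follistatin-like gene, rose by 1.89 in neurospheres and by 2.08 in cultured cells against tissue. Crim1, for a transmembrane protein that binds BMPs, was at 9.79, 9.32 and 9.24 in neurospheres, 11.66, 11.53 and 11.68 in cultured cells, and 9.33, 9.48 and 9.37 in tissue. Its log2 fold change was 2.23 in cultured cells against tissue and -2.17 in neurospheres against cultured cells. In neurospheres against tissue it was 0.06 and did not pass.

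The tolloid proteases, which cleave chordin and procollagens, differed in opposite directions between neurospheres and cultured cells. Bmp1, which in spite of its name encodes such a protease, was at 11.70, 11.98 and 11.71 (log2) in neurospheres, 9.71, 9.68 and 9.87 in cultured cells, and 8.25, 8.34 and 8.16 in tissue. It rose by 3.54 in neurospheres and by 1.5 in cultured cells against tissue, and by 2.04 in neurospheres against cultured cells. In the same order, another probe set rose by 4.44, 2.31 and 2.13. The dimmest had log2 fold changes of 0.07, -0.17 and 0.24 and did not pass. Tll1 was at 6.18, 5.17 and 5.24 in neurospheres, 8.03, 7.96 and 8.05 in cultured cells, and 5.24, 4.74 and 4.64 in tissue. It rose by 3.14 in cultured cells against tissue and fell by 2.48 in neurospheres against cultured cells.

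Of 12 Smad genes and intracellular regulators, 6 rose and 1 fell in neurospheres against tissue, 7 rose in cultured cells against tissue, and 1 rose and 5 fell in neurospheres against cultured cells. Smad6, an inhibitory Smad that BMP signalling induces, was at 9.35, 8.96 and 8.76 (log2) in neurospheres, 11.73, 11.36 and 11.33 in cultured cells, and 8.42, 8.09 and 8.32 in tissue. Its log2 fold change was 3.20 in cultured cells against tissue (SE 0.13, adjusted p = 2.13e-08) and -2.45 in neurospheres against cultured cells (SE 0.17, adjusted p = 1.80e-05). In neurospheres against tissue Smad6 rose by 0.75 (SE 0.16, adjusted p = 0.00289). Smad7, the other inhibitory Smad, was at 8.53, 8.19 and 8.13 in neurospheres, 9.77, 9.78 and 9.87 in cultured cells, and 8.54, 8.52 and 8.56 in tissue. It rose by 1.27 in cultured cells against tissue and fell by 1.52 in neurospheres against cultured cells. Bambi, for a decoy receptor, was at 8.81, 8.56 and 8.57 in neurospheres, 10.00, 10.06 and 9.88 in cultured cells, and 8.39, 8.30 and 8.41 in tissue. It rose by 1.61 in cultured cells against tissue and fell by 1.33 in neurospheres against cultured cells. All 3 genes were thus highest on the cultured cell arrays.

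Smad5, a Smad that BMP receptors activate, had the opposite step between the cultures. It rose by 1.49 in neurospheres against tissue and by 0.86 in neurospheres against cultured cells. Smurf2, a ubiquitin ligase of Smads and receptors, rose by 1.44 in cultured cells against tissue. The co-repressor genes Skil and Ski rose by 0.94 and 0.92 in neurospheres against tissue, and Tob1, for an inhibitor of BMP Smads, fell by 0.84.

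Of 9 other target genes, 1 rose and 4 fell in neurospheres against tissue, 2 rose and 3 fell in cultured cells against tissue, and 1 rose and 4 fell in neurospheres against cultured cells. Id4 was at 7.34, 6.81 and 6.53 (log2) in neurospheres, 9.54, 9.42 and 9.48 in cultured cells, and 10.84, 10.82 and 10.91 in tissue. It fell by 3.96 in neurospheres against tissue, by 1.38 in cultured cells against tissue and by 2.58 in neurospheres against cultured cells. Id2 rose by 0.70 in neurospheres against cultured cells (adjusted p = 0.00543), a call that was lost without cultured cells replicate 1 and with centring on hybridisation controls (log2 fold change 0.56 in both), with the methods' t-test after adjustment (adjusted p = 0.0554) and at a fold threshold of 2. Over all alternatives the adjusted p was 1.8e-05 to 0.0554, and the other probe sets of Id2 rose by 0.78 and 2.06.

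Atoh8, for a basic helix-loop-helix factor, was at 6.25, 6.30 and 6.07 (log2) in neurospheres, 8.11, 8.25 and 7.88 in cultured cells, and 5.71, 6.16 and 6.28 in tissue. It rose by 2.03 in cultured cells against tissue and fell by 1.88 in neurospheres against cultured cells. Msx2, a homeobox gene, rose by 1.99 in cultured cells and by 0.92 in neurospheres against tissue, and Dlx5, also a homeobox gene, fell by 1.38 in neurospheres against cultured cells. Hey1 and Gata2, which other pathways also control, fell by 2.45 and 1.34 in neurospheres against tissue. In cultured cells against tissue their log2 fold changes were -2.21 and -1.35.

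**Figure D4:**
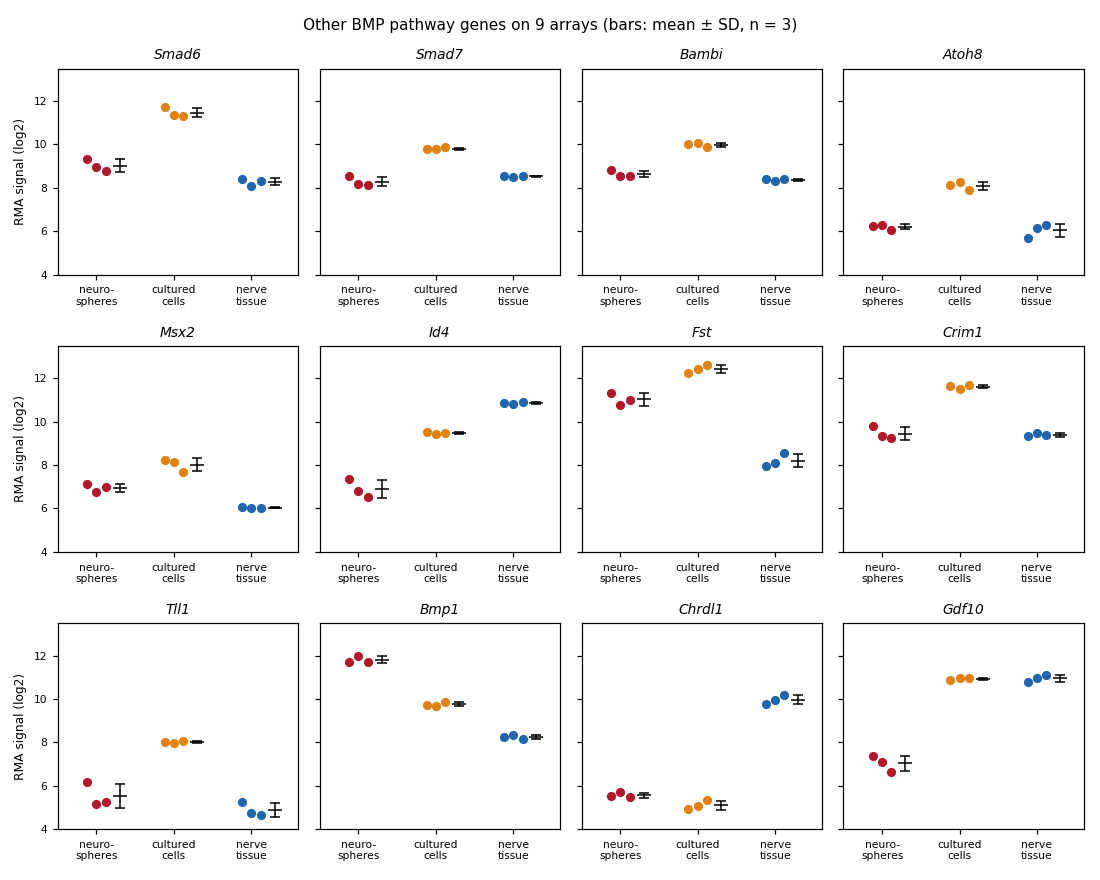
RMA signal (y axis, log2) of 12 other BMP pathway genes on the 3 arrays of each group, each array drawn as a point beside the mean ± SD of its group (n = 3). These genes were picked by hand from the 56, so the panels do not show how common each pattern is. Smad6 averaged 9.02 in neurospheres, 11.47 in cultured cells and 8.28 in tissue, and Smad7, Bambi, Atoh8, Msx2, Fst, Crim1 and Tll1 were also highest in cultured cells, whereas Bmp1 was highest in neurospheres and Chrdl1 in tissue.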

How the data were processed

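Expression had been measured on Affymetrix mouse arrays, 3 each for neurospheres, cultured cells and nerve tissue. The deposited values are log2 signals that the authors made by RMA in Affymetrix Expression Console, which corrects the background, equalises the distributions of the arrays and summarises probes per probe set, so that an overall shift between groups would be removed. Array medians were 6.15 to 6.27, and replicate arrays correlated at r = 0.993 to 0.997 across genes. Precision is limited by having 3 arrays a group.

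Of 45037 probe sets without controls, 34945 named 1 gene by the platform annotation, 932 named several and 9160 named none. Symbols were updated from a GRCm38.p6 gene table, except 161 for which the annotation's own symbol stands. For each of the 18193 genes the probe set of highest mean over the 9 arrays was used. Bmp7 had 3 probe sets, and the other 8 genes of interest had 1.

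For each comparison, its 6 arrays were fitted over all genes with lmFit and eBayes (limma 3.58.1, R 4.3.3), and the 2-sided p-values were adjusted by Benjamini-Hochberg. Fold changes are the first group minus the second. The pipeline was tested on simulated data with 200 changed genes. Other pathway genes came from textbook lists by role, and of these the text names, for each list and comparison, up to 3 that passed with the largest change in each direction. Bmpr1a and Bmpr2 are named besides these. For each changing gene of the 9 it also names the 3 genes with the highest correlation. The genes, lists and rules were chosen with earlier results of these data known. Promoters were found for 5 of the 9 genes.

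As alternatives, probe sets were tested singly, averaged per gene, or restricted to those not marked as shared. Arrays were centred on their brighter genes or on hybridisation controls, and the dimmest 40% of genes were removed. The model was fitted to all 9 arrays, with a trended and robust prior, with replicate number blocked, or replaced by the methods' t-test. The fold threshold was varied, and single arrays were left out.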

Additional observations from a re-analysis of the deposited data

Results flagged for a closer look

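The effect against tissue differed between the 2 kinds of culture for 4 of the 9 genes, by the test of neurospheres against cultured cells, in which the tissue arrays cancel. In that test 9.0% of all 18193 genes were higher and 8.91% were lower. The difference, the effect in neurospheres minus that in cultured cells, was 2.65 (log2) for Bmp2, -5.41 for Bmp4, -1.14 for Bmp6 and -0.78 for Id3. For Bmp2 and Bmp4 the effects themselves had opposite signs, with log2 fold changes of 1.54 in neurospheres and -1.11 in cultured cells for Bmp2, and of -2.24 in neurospheres and 3.17 in cultured cells for Bmp4. Bmp6 was below tissue in both cultures, by 4.80 and 3.67 on the log2 scale. The neurospheres had 12 more days in culture than the cultured cells and another medium, and these cannot be told apart.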

How the results depend on the processing

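Bmp2, Bmp4 and Bmp6 passed with the same direction in all 3 comparisons under each alternative run, as did Grem1 and Id1 against tissue where their probe sets were kept. With every probe set required to pass on its own, 2 rather than 3 genes fell in neurospheres and in cultured cells against tissue, since 1432410_a_at of Bmp7 did not pass (-0.52 and -0.58). Without probe sets marked as shared, Grem1 and Id1 had no probe set left, and 1 of the other 7 genes rose in neurospheres and 2 rose in cultured cells against tissue. In neurospheres against cultured cells, 2 genes rose in place of 1 with centring on hybridisation controls and with a fit to all 9 arrays (Grem1 added) and with no fold threshold (Bmp7 added), and leaving out 1 array gave 1 to 2. With a fold threshold of 2, Id3 passed in neither comparison in which it had passed. The sign turned for 3 values that had not passed, which were Nog in neurospheres against tissue without tissue replicate 2 (-0.06, with -0.06 to 0.34 when leaving out any 1 array), Bmp7 in neurospheres against cultured cells with the mean of its probe sets (-0.01) and Chrd in neurospheres against cultured cells with centring on hybridisation controls (-0.04). Of the other pathway genes, 8 rather than 18 rose in neurospheres against tissue with a fold threshold of 2, and in neurospheres against cultured cells 9 rose with no fold threshold and 2 with a threshold of 2, rather than 4. Of the named pathway genes, Rgmb, Msx2, Tob1 and Acvr2a in neurospheres against tissue, Acvr2b in cultured cells against tissue and Smad5 in neurospheres against cultured cells did not pass with the mean of their probe sets. That setting moved 19 values of 13 named genes by over 1.5 times, among them Bmpr1b (-0.75 in neurospheres and -0.80 in cultured cells against tissue) and Chrdl1 (-2.42 and -2.63).

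Centring on hybridisation controls shifted the median of all genes by 0.21 (log2) in cultured cells against tissue, where 4863 genes rose and 3262 fell rather than 3707 and 4011, and by -0.15 in neurospheres against cultured cells, where 1199 rose and 2223 fell rather than 1638 and 1621. With the replicate number as a block, the counts among the 9 genes were 3 up and 3 down, 4 up and 3 down, and 1 up and 3 down, the same as without it. Deviations of same-numbered arrays correlated at -0.09 to -0.06 for neurospheres and tissue, and at -0.19 to 0.04 for neurospheres and cultured cells. Of 6 arrays, 0 and 1 correlated best with their own number there, so no pairing by number was seen. For cultured cells and tissue the correlations were 0.07 to 0.21, and 5 of 6 arrays correlated best with their own number. Whether the numbers pair the samples of these groups cannot be told from so few arrays. A probe set near the background, such as that of Nog, can hide a change.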
